A study of Mus musculus with 6 samples.

Results

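Immediate-early genes are switched on within a short time of a signal, without new protein synthesis, and many of their products are transcription factors. Kinase cascades reach their promoters through serum response factor with its ternary complex partners, and through CREB. Fos and Jun proteins then pair through leucine zippers as the factor AP-1. Members of a second group, with Btg2, Rgcc and Ier3, are induced by stress, growth factors or differentiation signals and act on proliferation or survival. In maturing red cell precursors, differentiation is coupled to a limited number of divisions and then to exit from the cell cycle.

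The 10 genes described here are Fos, Fosb, Jun, Junb, Egr1, Ier2, Ier3, Btg2, Rgcc and Atf3, out of 19937 genes measured. They were selected on what they encode, with their log2 levels in wildtype and Klf1 knockout livers in view, so their difference between genotypes is given as a description. They were part of the fit over all genes, but no p-value of theirs is given. Only the count that passed the threshold is stated below, and nothing is read from it. Each of the 10 had 1 single-gene probe set, so no choice between probe sets was needed, and no filter on low values removed any of them. RNA came from the whole fetal liver of 3 wildtype and 3 Klf1-/- embryos of the FVB/NJ strain, taken at embryonic day 13.5 from time-mated Klf1 +/- stock, with 1 array per embryo. Klf1 encodes a zinc finger transcription factor of red cell precursors that binds CACC-type sequences. No drug was given, and no transgene is named in the labels, which also do not state which part of Klf1 was altered. The livers were dissociated to single cells in buffer with serum before RNA extraction, which all 6 arrays share. Whether littermates were used is not stated, so the spread given below is that between these embryos. Median intensity per array ran from 104.5 to 109.8, and the number of arrays limits the precision. The Klf1 probe set read 10.58 to 10.76 on the log2 scale in wildtype and 9.05 to 9.38 in knockout livers; transcript from outside the altered part would still give signal, so this may check nothing about the protein. Of all genes, 19.1% were called between genotypes by limma at a Benjamini-Hochberg adjusted p under 0.05, 10.8% higher and 8.26% lower in the knockout. Centring each array on its 75th percentile turned that split, with 1573 genes higher and 2462 lower, and the 3809 calls became 2409 without knockout replicate 2 and 2414 without knockout replicate 3.

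Promoter windows are shown for the 4 genes with the largest differences, Rgcc, Btg2, Ier3 and Jun. They are the 250 bases before the RefSeq start of each gene in GRCm38.p6, read 5′ to 3′ on the gene's strand. Rgcc lies at chr14:79301636-79301885 on the minus strand, Btg2 at chr1:134079156-134079405 on the minus strand, Ier3 at chr17:35821463-35821712 on the plus strand and Jun at chr4:95052223-95052472 on the minus strand. Capitals mark 3 motifs found on either strand, CCNCNCCC, TGACG (the core of the cyclic AMP response element, or CRE) and TATAA (the TATA box). CCNCNCCC takes in the CACC and GC box types bound by Krüppel-like and Sp factors. It also takes in other C-rich stretches, such as CCTCTCCC in Btg2.
Rgcc: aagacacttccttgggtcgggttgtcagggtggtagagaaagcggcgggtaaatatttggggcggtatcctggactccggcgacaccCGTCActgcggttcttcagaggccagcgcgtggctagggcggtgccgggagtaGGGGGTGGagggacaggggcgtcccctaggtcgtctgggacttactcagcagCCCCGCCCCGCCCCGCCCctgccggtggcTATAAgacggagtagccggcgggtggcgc
Btg2: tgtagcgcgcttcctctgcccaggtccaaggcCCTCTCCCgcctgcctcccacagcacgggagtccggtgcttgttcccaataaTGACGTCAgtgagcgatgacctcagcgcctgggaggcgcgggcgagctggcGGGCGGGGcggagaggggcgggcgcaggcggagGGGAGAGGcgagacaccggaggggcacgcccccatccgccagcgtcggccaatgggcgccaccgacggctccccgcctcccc
Ier3: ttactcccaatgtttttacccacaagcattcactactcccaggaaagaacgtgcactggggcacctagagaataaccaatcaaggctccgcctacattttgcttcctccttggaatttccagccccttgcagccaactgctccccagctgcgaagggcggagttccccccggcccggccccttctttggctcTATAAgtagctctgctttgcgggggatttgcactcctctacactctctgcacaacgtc
Jun: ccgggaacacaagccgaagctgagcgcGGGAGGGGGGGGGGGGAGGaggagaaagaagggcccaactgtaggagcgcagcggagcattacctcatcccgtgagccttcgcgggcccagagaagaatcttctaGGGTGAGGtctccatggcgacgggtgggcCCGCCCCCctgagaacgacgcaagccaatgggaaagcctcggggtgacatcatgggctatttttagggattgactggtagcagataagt

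The Rgcc window holds 3 overlapping copies of CCCCGCCC between 58 and 41 bases before the start, another CCNCNCCC match on the opposite strand, and a TATAA at 29 to 25 bases before the start. The Btg2 window holds a full CRE, TGACGTCA, at 166 to 159 bases before the start, and 3 matches to CCNCNCCC. Ier3 has no match to CCNCNCCC in this window and a TATAA at 58 to 54. In the Jun window most of the CCNCNCCC matches overlap in 1 run of G. Windows were found for 8 of the 10 genes, and the CCNCNCCC motif occurred in 7 of these 8, against 45.9% of 32851 windows of all genes. TGACG occurred in 6 of 8, in Fos, Fosb, Junb, Atf3, Btg2 and Rgcc, against 17.8% of all windows, and the full CRE in Btg2 alone, against 1.55%. TATAA occurred in 3 of 8, Fos, Ier3 and Rgcc, against 22.8%. CCAAT occurred in 4 of 8 against 33.8%, and GATAA in 2 of 8, Atf3 and Jun, against 22.6%. The AP-1 site TGANTCA, found in 6.75% of all windows, and the CArG box, found in 1.47%, had no match in the 8 windows, which says only that these letters are not in them. The 4 windows shown are rich in GC, from 54.4% in Ier3 to 73.2% in Btg2, against a median of 52.4% over all windows, and the windows were not matched for it. These are matches of letters, and binding was not measured.

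Among the 10 genes, 4 stood apart between genotypes by more than 0.75 on the log2 scale, and the other 6 differed by less than 0.25. Rgcc, Ier3 and Btg2 were lower and Jun was higher in knockout livers, while Egr1, Atf3, Fos, Fosb, Junb and Ier2 lay within 0.21 of their wildtype mean. In the fit 4 of the 10 passed the threshold, 3 lower and 1 higher, beside 19.1% of all genes; the list was chosen with this contrast known, and nothing is read from that count. The median difference of the 10 was -0.15, beside -0.02 for all genes, and it was -0.07 after quantile normalization. In whole livers, fewer cells of a type and less RNA per cell cannot be told apart.

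**Figure D1:**
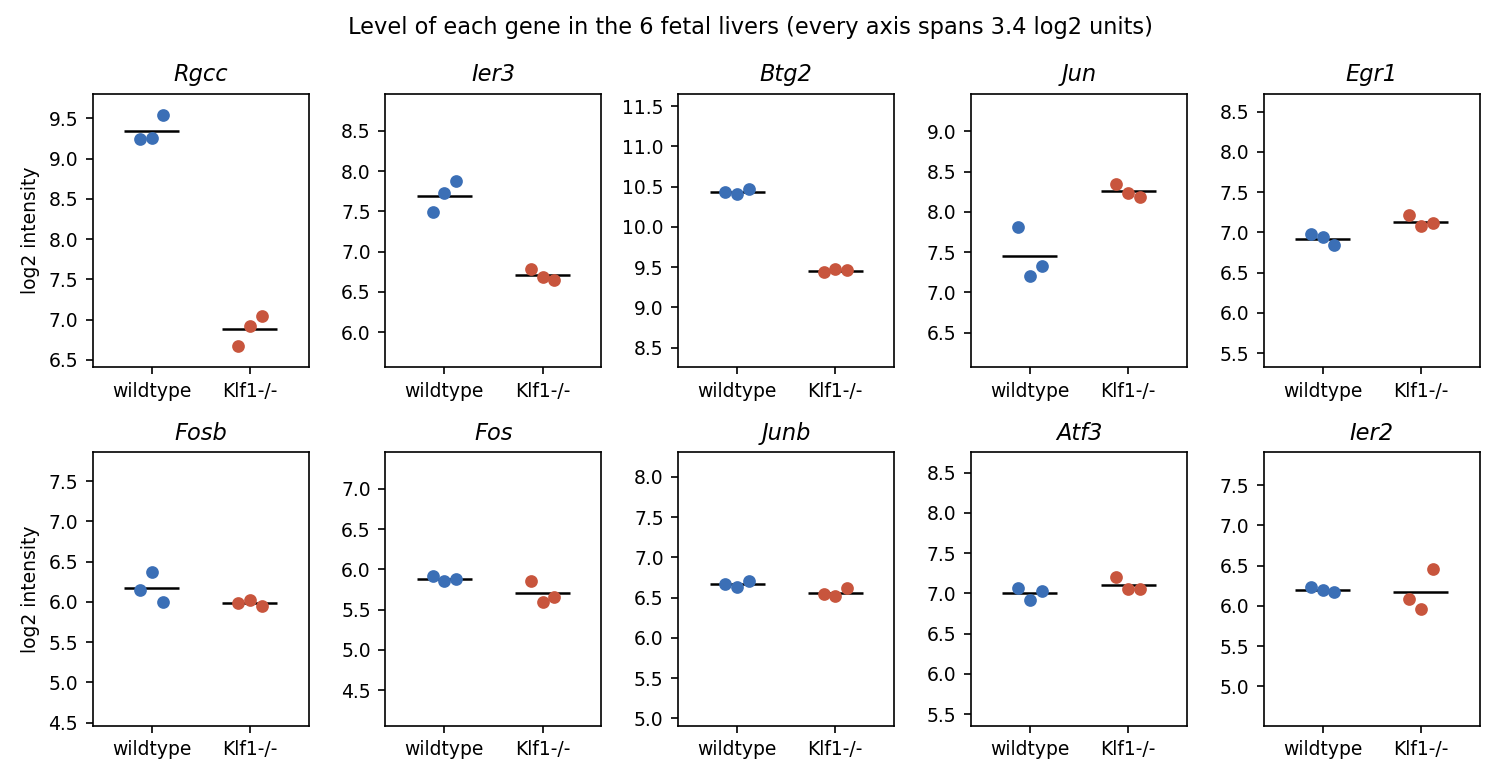
Level of each of the 10 genes on the log2 intensity scale (y axis) in 3 wildtype and 3 Klf1-/- fetal livers (x axis); points are arrays, lines are group means, and every axis spans the same length. Rgcc, Ier3, Btg2 and Jun separate most widely by genotype, with Rgcc moving from 9.35 to 6.88, while the other 6 genes stay near their wildtype level.

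Among the genes that act on proliferation or survival, Rgcc differed most. Rgcc, a regulator of the cell cycle first described as a response gene to complement, read 9.24, 9.26 and 9.54 in wildtype livers and 6.68, 6.92 and 7.04 in knockout livers. The groups lay far apart, with the lowest wildtype array 2.20 above the highest knockout array. The difference was -2.47 ± 0.11 (SE of the limma fit, n = 3 per group), a level 5.54-fold lower, and 27 of the 19937 genes had a lower difference. One knockout array, at 6.68, was below the median of its array, so the knockout level lies where many dim probe sets lie and its distance from background is unknown.

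Btg2, an antiproliferative protein of the BTG/Tob family that recruits the CCR4-NOT deadenylase and is a target of p53, read 10.43, 10.41 and 10.47 in wildtype and 9.44, 9.47 and 9.46 in knockout livers. Arrays of the same genotype were almost equal, and the groups did not overlap. The difference was -0.98 ± 0.07 (SE, n = 3 per group), or 1.97-fold lower. Ier3, a stress-induced protein that modulates survival and ERK signalling, read 7.49, 7.72 and 7.88 in wildtype and 6.79, 6.68 and 6.65 in knockout livers. Every knockout array was below every wildtype array, and wildtype was the more spread group, with a range of 0.39 against 0.14. The difference was -0.99 ± 0.10 (SE, n = 3 per group), or 1.99-fold lower, and 2 knockout arrays were below their array's median.

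Jun was the single AP-1 member with a large difference. Jun, the leucine zipper factor that pairs with Fos proteins, read 7.81, 7.20 and 7.33 in wildtype and 8.34, 8.23 and 8.19 in knockout livers. All knockout arrays were above the wildtype arrays, and wildtype replicate 1 lay nearest to them. The difference was 0.81 ± 0.14 (SE, n = 3 per group), or 1.75-fold higher, and 0.99 without wildtype replicate 1. The wildtype livers ranged over 0.61 and the knockout livers over 0.15.

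The other AP-1 genes were near equal in both genotypes, and quantile normalization brought their differences closer to 0. Fos read 5.92, 5.86 and 5.88 in wildtype and 5.85, 5.60 and 5.66 in knockout livers, a difference of -0.18 ± 0.09, or -0.08 after quantile normalization. The highest knockout array lay 0.0063 below the lowest wildtype array. Fosb, a Fos paralog, read 6.15, 6.37 and 6.0 in wildtype and 5.98, 6.03 and 5.95 in knockout livers, a difference of -0.19 ± 0.10, or -0.09 both after quantile normalization and without wildtype replicate 2, and its groups overlapped. Junb, a Jun paralog that can restrain proliferation, read 6.67, 6.63 and 6.70 in wildtype and 6.55, 6.52 and 6.61 in knockout livers, a difference of -0.11 ± 0.07, or -0.06 after quantile normalization. The Junb groups did not overlap, but were 0.017 apart. Fos, Fosb, Junb and Ier2 were below the median of the array on all 6 arrays and above the lower quartile. The deposited values have no detection call, so a difference in these dim probe sets could be larger in RNA than it reads here.

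Egr1, a zinc finger factor of the serum response, read 6.98, 6.95 and 6.84 in wildtype and 7.21, 7.07 and 7.12 in knockout livers. The knockout arrays were all slightly higher, with a difference of 0.21 ± 0.08. Atf3, a stress-induced CREB-family factor that can pair with Jun, read 7.07, 6.91 and 7.02 in wildtype and 7.20, 7.06 and 7.06 in knockout livers, with overlapping groups and a difference of 0.10 ± 0.08, or 0.06 without knockout replicate 1 or wildtype replicate 2 and 0.04 after centring on the 75th percentile. Ier2, a short nuclear immediate-early protein, read 6.24, 6.20 and 6.17 in wildtype and 6.08, 5.96 and 6.46 in knockout livers. The third knockout liver was above and the other knockout livers below all wildtype livers, so the difference of -0.03 ± 0.12 has no direction, and it turned to 0.07 without knockout replicate 2 and to 0.06 after quantile normalization. Groups did not overlap in 7 of the 10 genes, 5 lower and 2 higher, beside 37.5% of all genes; as above, nothing is read from this count.

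**Figure D2:**
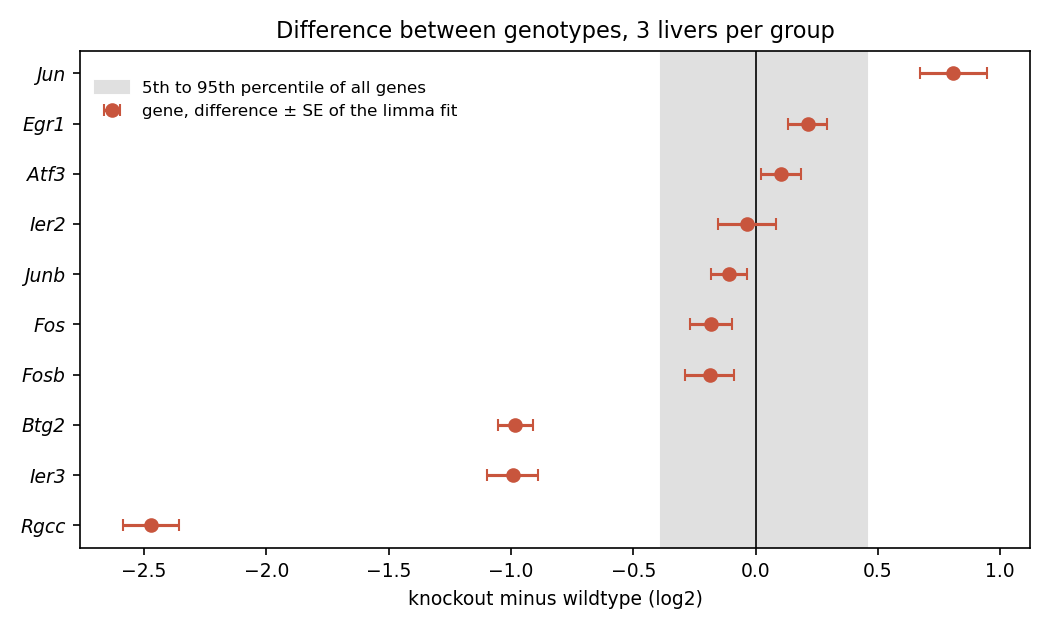
Knockout minus wildtype difference of each gene on the log2 scale (x axis), with bars for the standard error of the limma fit, over 3 livers per group; the grey band holds the middle of all genes, from -0.39 (5th percentile) to 0.46 (95th percentile). Rgcc, Ier3 and Btg2 lie left of the band and Jun right of it, and the other 6 genes lie inside.

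The spread between livers of the same genotype, which does not use the contrast, was ordinary for this array as a list and very unequal within it. The pooled within-genotype SD had a median of 0.12 over the 10 genes, beside 0.11 over all genes, and 5 of the 10 were above the latter. Jun was among the most variable genes measured, with an SD of 0.23, above that of 96.0% of all genes. Ier2 had an SD of 0.19, above 88.5%, which came mostly from knockout livers, where it ranged over 0.50 against 0.07 in wildtype. Rgcc followed with 0.18. At the other end Btg2 had an SD of 0.03, above that of 0.772% of all genes, and Junb one of 0.04, above 4.48%. No liver was the highest or the lowest of its genotype in more than 5 of the 10 genes. In wildtype livers replicate 1 was the highest in 5 and replicate 3 in 4, where over all genes each held that place in 33.9% and 31.2%. Wildtype replicate 2 was the lowest in 5, against 25.8% of all genes. Jun and Ier3 were opposite, with replicate 1 the highest for Jun and the lowest for Ier3. In knockout livers replicate 1 was the highest in 5 genes and replicate 2 the lowest in 5, where over all genes each held that place in 33.7% and 34.5%.

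**Figure D3:**
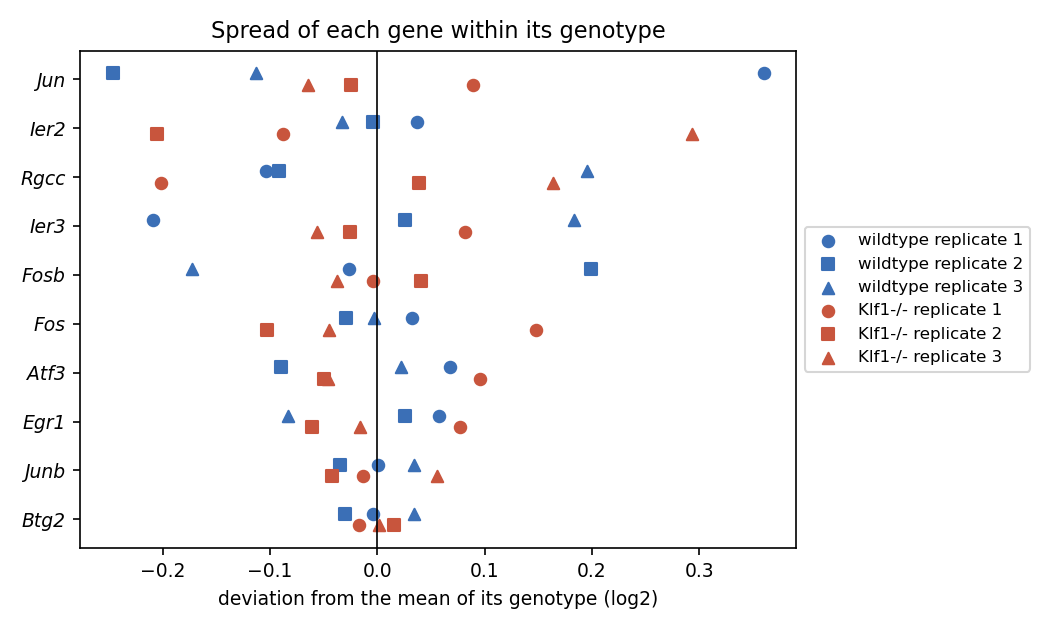
Deviation of each array from the mean of its genotype on the log2 scale (x axis) for each gene, ordered by pooled within-genotype SD; blue marks are wildtype and red marks knockout livers, and shapes are replicates. Jun spreads widest, chiefly through wildtype replicate 1, and Btg2 narrowest, its widest deviation being 0.035.

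The pathways around these genes were described with lists of other genes, tested in the same fit. These lists too were chosen with earlier results of these data known. Their counts and adjusted p describe these livers and are no independent test. Among the kinases and factors that act upstream, 8 of 20 measured rose in the knockout and 0 fell by limma (10 and 0 at an unadjusted p under 0.05), with a median of 0.19 beside -0.02 for all genes, and 10.8% of all genes rose. Crem, a CREB relative that binds the CRE, went from 7.15 ± 0.13 to 8.03 ± 0.17 (SD, n = 3), a rise of 0.88 ± 0.10 (limma adjusted p = 0.00017). Map2k1, the kinase MEK1 above ERK, rose by 0.66 ± 0.10 (adjusted p = 0.00076), and Mapk9, the Jun kinase JNK2, by 0.60 ± 0.08 (adjusted p = 0.00057). Mef2c, a MADS-box factor of Jun and other promoters, rose by 0.59 ± 0.09 (adjusted p = 0.00073). The ternary complex factor gene Elk1 also rose, from 8.39 to 8.75, while Srf itself, at 0.26 ± 0.08 (adjusted p = 0.053), was not called. Elk1 and Srf were added here with their values known. The count of rises was 5 without knockout replicate 3.

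Few of the AP-1 partner genes were called. Of 14 measured, 0 rose and 2 fell by limma (0 and 4 at an unadjusted p under 0.05), with a median of -0.08 (8.26% of all genes fell). Mafk, a small Maf protein that is a subunit of the erythroid factor NF-E2, went from 9.41 ± 0.05 to 8.45 ± 0.04 (SD, n = 3), a difference of -0.96 ± 0.07 (adjusted p = 8.4e-06). Its paralog Mafg fell by 0.27 ± 0.08 (adjusted p = 0.033), a call lost with any array but wildtype replicate 1 left out, with adjusted p up to 0.1.

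Other immediate-early genes went both ways, with 7 of 35 higher, 4 lower and a median of 0.02. Over all genes 10.8% were higher and 8.26% lower. After centring on the 75th percentile 6 of the 35 were higher and 6 lower. Zfp36l2, which destabilises AU-rich mRNAs, rose by 0.83 ± 0.09 (adjusted p = 6.2e-05), and Plk2, a polo-like kinase, by 0.59 ± 0.10 (adjusted p = 0.0027). Klf10, a TGF-beta-induced Krüppel-like factor, fell by 0.78 ± 0.10 (adjusted p = 0.0003), and the growth arrest gene Gadd45a by 0.60 ± 0.09 (adjusted p = 0.00097).

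The inhibitors that these pathways induce against themselves included Dusp1 and Spry1, the 2 genes that differed most among the 6 lists of other genes, cell type markers aside. Of 20 measured, 7 rose and 2 fell, beside 10.8% and 8.26% of all genes, with a median of 0.11. Centring on the 75th percentile left 5 rises. Dusp1, an immediate-early phosphatase of MAP kinases, read 10.50, 10.78 and 10.83 in wildtype and 7.73, 7.90 and 7.75 in knockout livers. It fell by 2.91 ± 0.10 (adjusted p = 2.1e-08), with no overlap. Spry1, an inhibitor of receptor tyrosine kinase signalling to ERK, went from 8.37 ± 0.05 to 9.77 ± 0.07 (SD, n = 3), a rise of 1.40 ± 0.08 (adjusted p = 7.2e-07). Nab1, a corepressor of Egr proteins, rose by 0.73 ± 0.13 (adjusted p = 0.0032), and Socs3, a feedback inhibitor of cytokine receptors, fell by 0.68 ± 0.11 (adjusted p = 0.0012), or by 0.43 as the mean of its probe sets.

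Around Btg2, the BTG/Tob family and the deadenylase subunits it works with showed little change. Of 18 measured, 1 rose and 0 fell by limma (3 and 0 at an unadjusted p under 0.05), with a median of 0.04. Over all genes 10.8% rose and 8.26% fell. The exception was Cnot7, a catalytic deadenylase subunit, which rose by 0.31 ± 0.09 (adjusted p = 0.029). That call was lost after centring on the 75th percentile and when wildtype replicate 1, wildtype replicate 3, knockout replicate 2 or knockout replicate 3 was left out.

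**Figure D4:**
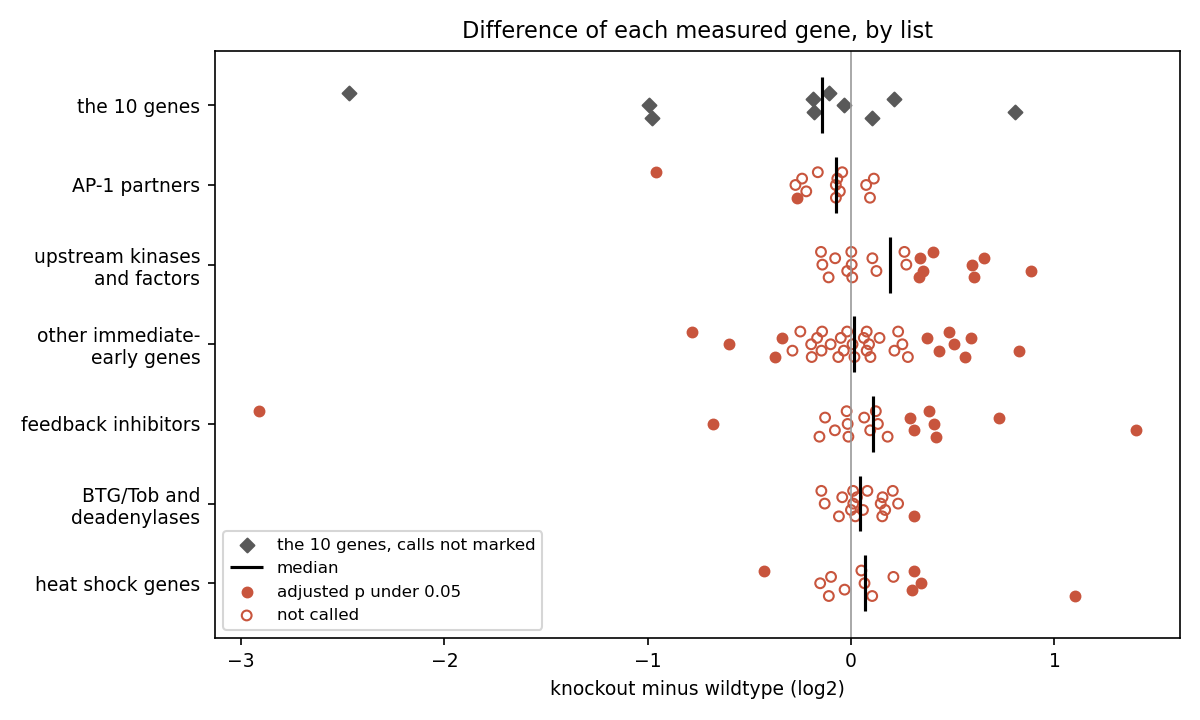
Knockout minus wildtype difference on the log2 scale (x axis) of every measured gene in each list (y axis); filled circles passed adjusted p under 0.05 in limma, open circles did not, grey diamonds are the 10 genes, whose calls are not marked, and black bars are list medians. Dusp1 at -2.91 and Spry1 at 1.40 are the ends of the feedback list, and the upstream list has filled circles only to the right of 0.

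Heat shock genes, which like immediate-early genes respond to tissue handling, moved in part with genotype. Of 13 measured, 4 rose and 1 fell, beside 10.8% and 8.26% of all genes, with a median of 0.07. The mean log2 level of the list lay between 10.45 and 10.60 in wildtype and between 10.65 and 10.70 in knockout livers. That mean includes Hspa1a, which rose far more than any other gene of the list, so it need not hold for the others. Hspa1a, the inducible Hsp70, read 8.01, 7.89 and 7.81 in wildtype and 9.12, 8.68 and 9.22 in knockout livers, a rise of 1.10 ± 0.13 (adjusted p = 0.00016). Its near-identical copy Hspa1b had no single-gene probe set, so signal of both may stand in this value. Dnajb1, an Hsp70 cochaperone, fell by 0.43 ± 0.11 (adjusted p = 0.023), while Bag3 and Hspb1 rose by 0.35 and 0.31 (adjusted p = 0.022 and 0.038). These last 3 calls were each lost in 3 or more alternatives, and with the mean of its probe sets Hspb1 differed by 0.01. With 1 array left out, between 1 and 4 of the list were called, with 1 without knockout replicate 2. The part of handling in the difference of Jun, or of the genes that were lower, was not tested.

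Cell type markers also moved with genotype, where 10.8% of all genes rose and 8.26% fell. Klf1 acts in red cell precursors, so for erythroid markers fewer cells and less RNA per cell cannot be told apart. All 7 measured erythroid markers fell, among them Ermap, a red cell adhesion protein, at -1.59 ± 0.07 and Tfrc, the transferrin receptor, at -1.30 ± 0.08; the mean log2 level of the list was 12.46 to 12.59 in wildtype and 11.37 to 11.45 in knockout livers. Of 10 macrophage markers 7 fell, led by Cd5l at -0.90 ± 0.13 and Adgre1 at -0.66 ± 0.13, with list levels of 8.78 to 9.02 against 8.36 to 8.53. Megakaryocyte markers rose in 5 of 5, with Itga2b at 1.05 ± 0.12 (10.74 to 10.84 against 11.23 to 11.65), and granulocyte markers in 4 of 9, with Mpo at 0.58 ± 0.10 (8.98 to 9.05 against 9.31 to 9.62). Hepatoblast markers fell in 2 of 8 (12.23 to 12.47 against 12.13 to 12.22), endothelial markers rose in 1 of 7 (8.74 to 9.25 against 8.95 to 9.21) and mesenchymal markers were called in 0 of 7 by limma (8.43 to 8.89 against 8.39 to 8.64). At an unadjusted p under 0.05, 0 of the mesenchymal markers were higher and 1 lower, and 2 were called without wildtype replicate 1. By the same unadjusted limit 3 endothelial markers were higher and 1 lower, and 1 macrophage marker was higher and 8 lower. The endothelial marker Lyve1 differed by -0.48 and the macrophage marker Lyz2 by 0.26, and neither was called. With 1 array left out, 2 to 6 granulocyte markers were called (2 without wildtype or knockout replicate 3), 0 to 2 hepatoblast markers (0 without wildtype replicate 3 or knockout replicate 2 or 3) and 0 to 4 endothelial markers (4 without wildtype replicate 3). No marker read 0, since the lowest value of any array was 5.6 in intensity. Wildtype replicate 3, the highest wildtype array of Ier3, Rgcc, Btg2 and Junb, was also that of the erythroid, hepatoblast, macrophage, endothelial and mesenchymal lists. Its median over all probe sets was the highest too, at 6.78 on the log2 scale against 6.71 and 6.74 in replicates 1 and 2. Btg2 and Junb ranged over only 0.06 and 0.07 in wildtype livers. The part of that array level in these orders was not tested. The part of these cell types in the differences of Rgcc, Ier3, Btg2 and Jun was not tested.

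Junb and Ier2 lie on chromosome 8, as does Klf1, with 6 genes between Klf1 and Junb and 16 between Klf1 and Ier2 in the order of the GRCm38.p6 gene table. Of 11 measured genes between Klf1 and Ier2, 1 rose and 1 fell, near the shares of all genes, 10.8% and 8.26%. Nacc1 rose by 0.32 ± 0.08 (adjusted p = 0.013), a call lost without knockout replicate 2 or 3, and the noncoding G430095P16Rik fell by 1.24 ± 0.14 (adjusted p = 0.00011). Between Klf1 and Junb, 2 of 5 measured genes fell, beside 8.26% of all genes. Prdx2, a red cell peroxiredoxin, fell by 0.44 ± 0.08 (limma adjusted p = 0.0026). Rnaseh2a fell by 0.27 ± 0.08 (limma adjusted p = 0.039), a call lost whichever array was left out, with adjusted p up to 0.11. Probe sets were paired with genes by the platform annotation, and their genome positions were not checked. The probe set numbers of Prdx2 and Nacc1 lie apart from those of the other measured neighbours. The Junb and Ier2 differences of -0.11 and -0.03 were smaller than those of the called genes named here. Calling favours large differences, so that comparison shows nothing about the locus. The uncalled genes between Klf1 and Junb were also lower, with Dnase2a at -0.12, Mast1 at -0.09 and Rtbdn at -0.32. Between Klf1 and Ier2 the uncalled genes ran from -0.20 (Calr) to 0.12 (Trmt1). The part of the locus in the Junb and Ier2 differences was not tested.

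By the mean profile of the 10 genes over the 6 arrays, each gene centred on its own mean, the 6 closest other genes were Cldn19, Zfp949, Mcl1, Nrip1, Msx1 and Foxn1, with root mean square differences of 0.03 on the log2 scale. Of these Mcl1, a survival protein of the BCL2 family and itself an immediate-early gene, read 10.95, 10.92 and 10.94 in wildtype and 10.55, 10.57 and 10.56 in knockout livers. The mean profile averages genes that differed in opposite directions, so no member has it: Jun was higher where the mean profile is lower, and Rgcc differed several times more.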

How the data were processed

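The authors deposited probe set intensities on a linear scale from 1-colour Affymetrix Mouse Gene arrays. Per the submitters' processing notes these come from RMA, run with Affymetrix Power Tools 1.8.6; the genome build is not given in the sources used here. Such values are equalised between arrays, which hides any change in total RNA. Here log2 was taken, with no further normalization. For each gene the brightest probe set was taken among the 21640 that the platform annotation pairs with 1 gene. The limma 3.58.1 fit (lmFit, eBayes, R 4.3.3) used all 6 arrays with genotype as its term, 2-sided, adjusted by Benjamini-Hochberg over 19937 genes, and ± marks its SE unless SD is written. With 3 against 3, an exact permutation test cannot go below p = 0.1, so none was run. The fit was tested on simulated data.

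The members and lists were chosen with earlier results of these data known. Synonyms matched 5 list symbols. Named were all members, at most 4 called genes per list and near Klf1 by size (2 by p where none was called), and the 6 closest profiles; Elk1, Srf, Hspa1b, Prdx2 and Rnaseh2a were added after their values were seen. Some marker lists are given as counts. Promoters are RefSeq's; windows of Egr1 and Ier2 were not used here. Alternatives included quantile normalization, 75th percentile centring, a filter at the 25th percentile, the mean of probe sets, array weights, a trended robust variance, a replicate block and leaving out each array.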

Additional observations from a re-analysis of the deposited data

How the results depend on the processing

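Differences of Rgcc, Ier3, Btg2, Jun, Egr1, Atf3, Fos, Fosb and Junb kept their sign under the 11 alternatives run for them, with Rgcc from -2.55 to -2.37, Ier3 from -1.10 to -0.90, Btg2 from -1.05 to -0.96 and Jun from 0.68 to 0.99. The smaller differences ran from -0.26 to -0.08 for Fos, -0.27 to -0.09 for Fosb, -0.17 to -0.06 for Junb, 0.15 to 0.24 for Egr1 and 0.04 to 0.14 for Atf3; that of Ier2 changed sign in 3. With 1 array left out, the median of the 10 genes ran from -0.16 to -0.11, and it was -0.07 after quantile normalization and -0.21 after centring on the 75th percentile. The count over all genes ran from 2409, without knockout replicate 2, to 3749, and was 2414 without knockout replicate 3. Over the same leave-outs the upstream list had 5 to 10 calls, AP-1 partners 1 to 2, heat shock genes 1 to 4, BTG/Tob and deadenylase genes 0 to 1 and genes between Klf1 and Ier2 1 to 2. The genes between Klf1 and Junb, whose alternatives were chosen after seeing the data, had 1 call whichever array was left out. Heat shock calls numbered 3 after quantile normalization and 3 after centring on the 75th percentile. The BTG/Tob list had 2 calls after quantile normalization, 0 after centring on the 75th percentile, 2 with the filter on dim genes, 3 with array weights and 3 with the trended robust variance. With the replicate number as a block, AP-1 partners had 1 call, the genes between Klf1 and Junb 1 and all genes 3498. Deviations of same-numbered arrays correlated at -0.16, -0.22 and 0.18 over genes, and those of differently numbered arrays at -0.17 to 0.33. These values gave no sign that the numbers pair the livers, but cannot exclude a shared litter or batch. The cause of these changes was not tested. Dim probe sets limit what Fos, Fosb, Junb and Ier2 can show. Egr1 and Atf3 lay above the array medians but near them, and have no detection call either. On wildtype replicate 3 Egr1 read 6.84, where the array median was 6.78.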
